A study of Mus musculus with 12 samples.

Results

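Bone marrow-derived macrophages (BMDMs) of wild-type (WT) mice were compared with and without PF-06409577 (PF), a small molecule that activates AMP-activated protein kinase (AMPK). The comparison took 6 of the 12 RNA sequencing libraries of the series, chosen by genotype and treatment: 3 libraries with the DMSO vehicle at 0.1% and 3 with PF at 10 μM, after 6 h. These primary macrophages had been grown from marrow of the leg bones in medium of L929 cells, a source of the growth factor M-CSF, and had received no inflammatory stimulus that the labels name. The other 6 libraries, from mice that lack the AMPKβ1 subunit (AMPKβ1-/-) and were treated in the same 2 ways, entered here only to estimate the spread and to test whether a response differed between the genotypes. Of 12960 genes listed, 10822 passed the low-count filter and were tested, and the question was which genes the macrophages expressed at another level once AMPK was activated.

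AMPK is a kinase of α, β and γ subunits that senses falling cellular energy, and PF binds complexes that hold the β1 subunit. Active AMPK phosphorylates and inhibits acetyl-CoA carboxylase, which controls the synthesis of fatty acids, and it restrains the synthesis of sterols. It also acts on ULK1, which starts autophagy, and on the folliculin complex, which governs the lysosomal transcription factors TFEB and TFE3. When sterols in the endoplasmic reticulum fall, the transcription factor SREBP2 is released to the nucleus and raises the genes of cholesterol synthesis, while oxysterols activate the LXR receptors, which raise the genes of cholesterol efflux.

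The WT libraries held from 10621863 to 13073445 counts assigned to genes, and 3 counts in a library, the most that a listed 0 allows, were worth 0.231 to 0.321 CPM, the depth-normalised read count used throughout, here relative to the library size scaled by TMM. These limits cover counting error only. *Prkab1*, the gene that AMPKβ1-/- mice lack, stood at 37.3 to 45.3 CPM in the 6 WT libraries and at 6.05 to 9.42 CPM in the 6 AMPKβ1-/- libraries. Nothing in the labels says that the 3 libraries of a group came from separate mice. The p-values therefore measure the spread between libraries within all 4 groups, AMPKβ1-/- included, which may be technical. The variance between 2 libraries of a group, relative to counting error, was 5.80 to 18.5 in WT and 2.20 to 11.6 in AMPKβ1-/- BMDMs. Of 17 macrophage identity markers 16 passed the filter, with summed levels of 51925 to 59346 CPM with vehicle and 50540 to 56955 CPM with PF. By the test described below, 4 of the 16 fell with PF, against 8.95% of all tested genes, and the others did not pass. Granulocyte markers (3 of 14 passed) summed to 108 to 117 CPM with vehicle and 93.2 to 107 CPM with PF. The lymphoid markers that passed (3 of 15) summed to at most 16.9 CPM and those of fibroblasts (4 of 12) to at most 5.77 CPM in any WT library. In bulk RNA a smaller number of cells of a type cannot be told apart from less RNA per cell.

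PF changed many genes in WT BMDMs by modest amounts. With an adjusted p below 0.05 (edgeR's quasi-likelihood test, Benjamini-Hochberg over the 10822 genes), 756 genes were higher (6.99% of those tested) and 969 lower (8.95%), and the median size of their log2 fold change was 0.43. Differentially expressed genes (DEGs), with a log2 fold change above 0.8 or below −0.8 as well, numbered 125 higher (1.16%) and 40 lower (0.370%). All 3 PF libraries lay above all 3 vehicle libraries for 14.2% of the tested genes and below them for 18.1%. Scaling by library size alone gave 1045 higher and 587 lower genes and 188 and 26 DEGs.

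How many genes passed depended on single libraries. Without vehicle library 1, 186 were higher and 353 lower, and without vehicle library 3, 260 and 439. Leaving out PF library 2 gave 185 and 268, and leaving out PF library 3 gave 129 and 217. Without PF library 1 the counts rose to 1622 and 1621. The higher DEGs numbered 33, 301 and 71 without vehicle library 1, 2 or 3, and 387, 53 and 22 without PF library 1, 2 or 3. For lower DEGs the counts that moved most were 24 without vehicle library 3 and 72, 23 and 23 without PF library 1, 2 or 3. Many of the genes described below are therefore given with their values in each library, and others by their log2 fold change alone. A gene called steady had an adjusted p below 0.05 in the same direction in every one of its alternative fits, up to 16 for each gene, leave-outs included. Of 145 genes named by rule, 132 passed the test and 71 were steady, 30 of them higher and 41 lower.

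The response also followed the base composition of the genes. Across 10780 genes of known GC content the Spearman correlation of the log2 fold change with GC was −0.69, a description without a p since genes share the libraries. Among the fifth of genes with the lowest GC, 379 were higher and 2 lower, and among the fifth with the highest GC, 18 and 535. The slope of each gene's deviation on GC, in log2 CPM per 10 percentage points, was 0.73, 0.36 and 0.54 in the vehicle libraries and 0.37, 0.17 and −0.052 in the PF libraries (exact permutation test, two-sided, p = 0.2, where 3 against 3 allows no p below 0.1). Once the trend of each library with GC and length had been taken out, 320 genes were higher and 415 lower, DEGs numbered 25 and 28, and 500 of the 1725 genes kept their call. The part of GC content in each result below was not tested. For many results the value with this trend removed is given beside it as the GC-adjusted value. A result given without it may depend on GC content as well.

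**Figure D1:**
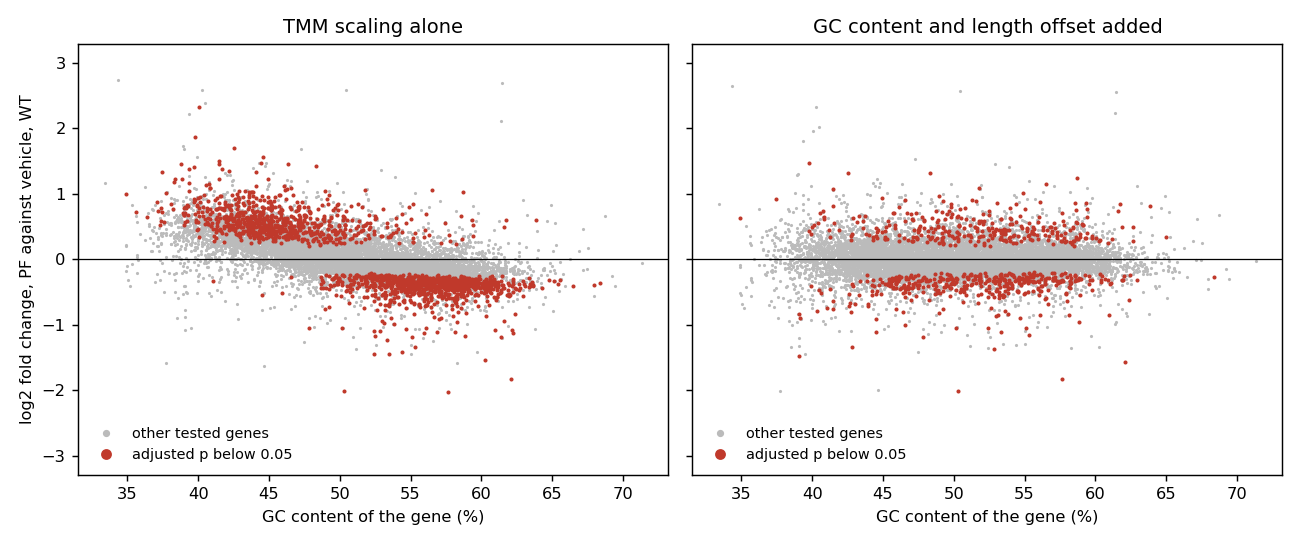
Log2 fold change of PF against vehicle in WT BMDMs for each tested gene (y axis) against the GC content of the gene in percent (x axis), with TMM scaling alone on the left and with the GC content and length trend of each library removed on the right. Red points have an adjusted p below 0.05. On the left the cloud slopes down from genes of low to genes of high GC, and on the right it lies flat.

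The genes of cholesterol synthesis rose in number. Of 21 tested enzymes from acetyl-CoA to cholesterol 11 rose and the others did not pass the test, against 6.99% of all tested genes higher. The median log2 fold change was 0.36 over the 9 genes of the mevalonate arm and 0.42 over the 12 genes from squalene to cholesterol, against 0.0048 over all tested genes. GC-adjusted, 12 rose and the medians were 0.44 and 0.44. From 9 to 11 of the 21 rose whichever WT library was left out, the lowest count being that without PF library 2.

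*Hmgcs1*, the HMG-CoA synthase that feeds the pathway, had 27.7, 43.3 and 42.2 CPM with vehicle and 55.6, 75.7 and 102 CPM with PF. Every PF library lay above every vehicle library, a 2.06-fold rise (log2 fold change 1.04, SE 0.20, adjusted p = 0.00688, GC-adjusted 0.65). *Idi1*, the isomerase of the isoprenoid units, had 6.09, 10.7 and 9.55 CPM with vehicle and 13.5, 18.1 and 24.5 CPM with PF, again without overlap. The rise was 1.08 on the log2 scale (SE 0.24, adjusted p = 0.0133, GC-adjusted 0.62). Its adjusted p was 0.051 without vehicle library 1 and 0.0591 without PF library 3.

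Several enzymes downstream of squalene rose as well. *Cyp51*, the lanosterol demethylase, stood at 58.8, 58.3 and 53.1 CPM with vehicle and at 90.2, 95.7 and 104 CPM with PF (1.70-fold, log2 fold change 0.77, SE 0.08, adjusted p = 0.000298). *Msmo1*, a sterol methyl oxidase, rose from 66.8, 72.9 and 61.7 to 104, 118 and 127 CPM (log2 fold change 0.79, SE 0.10, adjusted p = 0.000588, GC-adjusted 0.44). For both genes the highest vehicle library lay below the lowest PF library. *Hsd17b7*, a ketosteroid reductase of the pathway, rose from 6.63, 7.66 and 8.16 to 13.4, 14.7 and 18.2 CPM (2.06-fold, log2 fold change 1.04, SE 0.15, adjusted p = 0.00105, GC-adjusted 0.96). *Sc5d*, a sterol desaturase, rose by 0.89 (SE 0.15, adjusted p = 0.00238). Squalene epoxidase, *Sqle*, and lanosterol synthase, *Lss*, rose by 0.54 and 0.47, and both were steady. *Dhcr7*, a reductase of the last steps, had a value of −0.01 with overlapping libraries (adjusted p = 0.913).

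*Insig1* rose with the enzymes. It encodes the membrane protein that holds SREBP in the endoplasmic reticulum and is itself a target of SREBP. Its level was 52.4, 63.0 and 71.2 CPM with vehicle and 104, 126 and 139.6 CPM with PF, without overlap (1.98-fold, log2 fold change 0.99, SE 0.12, adjusted p = 0.000454, GC-adjusted 0.71). The transcripts of the SREBPs had log2 fold changes of −0.13 (*Srebf2*, adjusted p = 0.256) and −0.17 (*Srebf1*, adjusted p = 0.22), and the sign of *Srebf2* turned to 0.11 when GC-adjusted.

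The bases before the start of 4 of these genes are shown, the 3 largest rises among the 21 enzymes and *Insig1*. RefSeq promoters (GRCm38.p6) were at hand for 16 of the 21 enzymes and for *Insig1*, and the first 250 bases before each start were searched on both strands. Capitals mark TCACNCCAC, a form of the sterol element that SREBP binds, and CCAAT or its reverse complement ATTGG, the box of its partner NF-Y. The runs read 5′ to 3′ on the strand of the gene: *Hmgcs1* at chr13:119690101-119690350 and *Idi1* at chr13:8885356-8885605 on the plus strand, *Hsd17b7* at chr1:169969206-169969455 on the minus strand and *Insig1* at chr5:28071162-28071411 on the plus strand.
Hmgcs1: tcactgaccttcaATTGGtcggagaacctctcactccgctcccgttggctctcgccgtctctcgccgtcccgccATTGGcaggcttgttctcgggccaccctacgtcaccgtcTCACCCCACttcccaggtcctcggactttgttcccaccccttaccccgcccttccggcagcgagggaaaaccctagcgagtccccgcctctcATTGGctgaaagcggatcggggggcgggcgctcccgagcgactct
Idi1: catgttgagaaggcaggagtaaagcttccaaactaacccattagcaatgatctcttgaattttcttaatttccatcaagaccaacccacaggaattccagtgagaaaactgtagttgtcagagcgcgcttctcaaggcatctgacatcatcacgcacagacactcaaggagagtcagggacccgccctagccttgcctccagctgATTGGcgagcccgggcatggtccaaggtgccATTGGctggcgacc
Hsd17b7: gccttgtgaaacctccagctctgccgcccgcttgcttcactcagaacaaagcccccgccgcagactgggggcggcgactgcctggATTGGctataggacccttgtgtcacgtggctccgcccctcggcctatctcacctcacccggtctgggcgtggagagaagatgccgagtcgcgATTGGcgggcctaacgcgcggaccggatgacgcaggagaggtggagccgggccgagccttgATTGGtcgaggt
Insig1: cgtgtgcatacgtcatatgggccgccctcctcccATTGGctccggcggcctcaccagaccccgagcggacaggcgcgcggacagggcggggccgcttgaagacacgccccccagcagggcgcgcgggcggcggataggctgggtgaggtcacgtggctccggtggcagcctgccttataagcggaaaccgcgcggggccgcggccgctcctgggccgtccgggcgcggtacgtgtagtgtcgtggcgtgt
A CCAAT box was in 15 of the 19 promoters of the tested enzymes (78.95%), against 35.5% of 11225 promoters of tested genes and 33.85% of all 32851 promoters. All 7 enzymes that rose and had a promoter held it, and 8 of the 12 promoters of enzymes that did not pass the test did too. TCACNCCAC was in 1 of the 19, that of *Hmgcs1* (position −137 from the start), against 0.98% of the promoters of tested genes. These matches describe the letters of the windows and were not tested for binding.

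In AMPKβ1-/- BMDMs the same enzymes changed little as a set. The median log2 fold change with PF was −0.055 over the mevalonate arm and −0.085 from squalene to cholesterol, and of the 21 genes none passed edgeR's test there and 1 had an unadjusted p below 0.05. For *Fdps*, *Mvd* and *Fdft1* (−0.20, −0.24 and −0.15) every PF library there lay below every vehicle library. Others went up, such as *Idi1* at 0.20 with overlapping libraries. Over all genes 6 passed in that genotype (0.0554%). The difference between the genotypes, tested as the interaction term of the same fit, passed for 45 genes (0.416%). Of the 21 sterol enzymes 4 passed, 1 of the mevalonate arm and 3 from squalene to cholesterol. The 3 were *Cyp51* (0.84, SE 0.12, adjusted p = 0.00811), *Msmo1* (0.79, SE 0.14, adjusted p = 0.0261) and *Hsd17b7* (1.14, SE 0.21, adjusted p = 0.0261). For *Insig1*, with 65.4, 62.5 and 57.1 CPM with vehicle and 57.4, 59.7 and 58.0 CPM with PF in AMPKβ1-/- BMDMs, the difference was 1.07 (SE 0.16, adjusted p = 0.0133). *Hmgcs1* and *Idi1*, whose rises in WT were as large, had differences of 1.02 (SE 0.28, adjusted p = 0.14) and 0.89 (SE 0.33, adjusted p = 0.252).

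**Figure D2:**
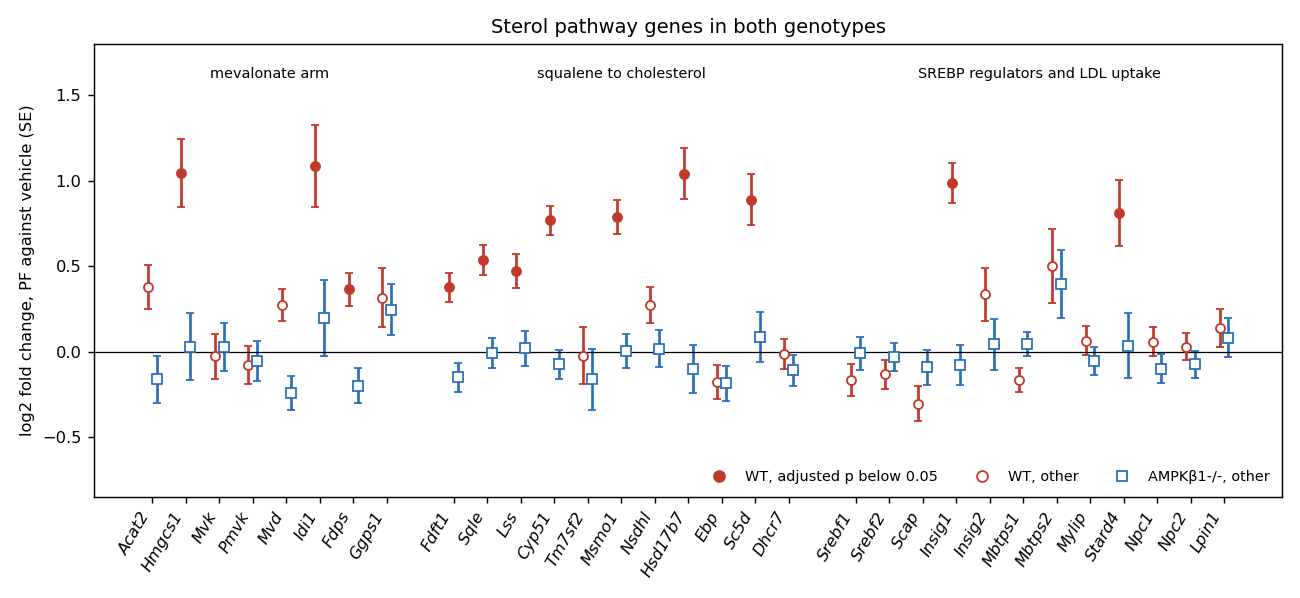
Log2 fold change (± SE) of PF against vehicle for tested genes of the mevalonate arm, of the steps from squalene to cholesterol and of SREBP control, in WT (red circles) and AMPKβ1-/- BMDMs (blue squares). Filled symbols have an adjusted p below 0.05. The 12 filled symbols are all WT and positive, from 0.36 to 1.08.

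The fatty acid-binding proteins *Fabp5* and *Fabp4* both rose. *Fabp5*, which carries fatty acids in macrophages, had 334, 339 and 284 CPM with vehicle and 568, 611 and 571 CPM with PF and was the more abundant of the pair described here. The groups were far apart (1.83-fold, log2 fold change 0.87, SE 0.08, adjusted p = 7.23e-05, GC-adjusted 0.70). *Fabp4*, its close relative of adipocytes and macrophages, rose from 9.09, 12.4 and 14.6 to 19.3, 34.0 and 31.8 CPM (2.35-fold, log2 fold change 1.23, SE 0.20, adjusted p = 0.00259, GC-adjusted 0.81). In AMPKβ1-/- BMDMs *Fabp5* had 177 to 200 CPM in all 6 libraries, and the difference between the genotypes was 0.90 (SE 0.12, adjusted p = 0.00471). For *Fabp4* that difference was 1.07 (SE 0.29) and did not pass (adjusted p = 0.129). *Fabp3*, of the same family, rose by 0.53 (SE 0.17, adjusted p = 0.0419), a call that held in 8 of 16 alternatives. Its log2 fold change in AMPKβ1-/- BMDMs was 0.56 (adjusted p = 0.535), and the genotypes differed by −0.028 (adjusted p = 0.966). The desaturase gene *Scd2* rose by 0.74 (SE 0.09, adjusted p = 0.000454) and differed between the genotypes by 0.90 (SE 0.13, adjusted p = 0.00811). *Fasn*, fatty acid synthase, had a log2 fold change of 0.05 with overlapping libraries (adjusted p = 0.751) and turned to −0.058 without PF library 1 and −0.022 without vehicle library 2. *Acaca*, the acetyl-CoA carboxylase that AMPK inhibits, was at −0.05 (adjusted p = 0.744).

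*Soat1*, which forms cholesterol esters, and *Nceh1*, which hydrolyses them, both rose. *Nceh1* had 196, 241 and 209 CPM with vehicle and 307, 327 and 395 CPM with PF (log2 fold change 0.67, SE 0.11, adjusted p = 0.00259, GC-adjusted 0.70). *Soat1* rose by 0.51 (SE 0.09, adjusted p = 0.00295, GC-adjusted 0.29). Both were steady. *Lipe*, the hormone-sensitive lipase that also cleaves cholesterol esters, fell by 0.41 on the log2 scale (SE 0.10, adjusted p = 0.0173, GC-adjusted −0.19), and *Pnpla2*, the triglyceride lipase of lipid droplets, by 0.34 (SE 0.09, adjusted p = 0.0226, GC-adjusted −0.097). Neither fall passed without vehicle library 1 (adjusted p = 0.0704 for *Lipe* and 0.0788 for *Pnpla2*), vehicle library 3 (0.0526 and 0.0722), PF library 2 (0.0617 and 0.0883) or PF library 3 (0.0955 and 0.119). *Plin2*, the main coat protein of macrophage lipid droplets, was at −0.16 with overlapping libraries (adjusted p = 0.153).

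Of 15 tested genes of the LXR pathway and cholesterol efflux 8 fell and the other 7 did not pass, against 8.95% of all tested genes lower, and the median was −0.32. GC-adjusted, 3 fell and the median was −0.14. The count was 3 without vehicle library 1, PF library 2 or PF library 3 and 5 without vehicle library 3. *Nr1h3*, which encodes LXRα, had 95.4, 80.2 and 73.8 CPM with vehicle and 62.3, 61.8 and 52.0 CPM with PF, without overlap (1.42-fold lower, log2 fold change −0.50, SE 0.10, adjusted p = 0.00626, GC-adjusted −0.28). *Abca7*, a lipid transporter, fell by 0.62 on the log2 scale (SE 0.13, adjusted p = 0.00766, GC-adjusted −0.31). Both were steady. The classical efflux targets *Abca1* and *Abcg1* were at −0.29 and 0.06 with overlapping libraries (adjusted p = 0.195 and 0.664). *Apoe*, the main apolipoprotein of macrophages, fell from 5404, 5304 and 4905 to 4841, 4247 and 3873 CPM (log2 fold change −0.27, SE 0.09, adjusted p = 0.0483, GC-adjusted −0.043). That call held in 5 of 16 alternatives, with adjusted p of 0.13, 0.0803 and 0.0638 without vehicle library 1, 2 or 3 and 0.132 and 0.231 without PF library 2 or 3. Of 20 genes of fatty acid oxidation 4 rose and 2 fell, against 6.99% and 8.95% of all tested genes, and GC-adjusted 1 rose and 1 fell. Leaving out a library gave 1 and 1 without vehicle library 1 or PF library 2, 2 and 2 without vehicle library 3, 5 and 3 without PF library 1, and without PF library 3 1 fall and no rise by edgeR (6 of the 20 at an unadjusted p below 0.05, and 4 rises each by DESeq2 and limma-voom with all libraries). A steady fall was that of *Cpt1a*, the carnitine acyltransferase that admits fatty acids to mitochondria. *Cpt1a* stood at 208, 198 and 214 CPM with vehicle and 165, 154 and 152 CPM with PF (log2 fold change −0.40, SE 0.07, adjusted p = 0.00295).

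Of 44 tested lysosome genes 10 rose and 1 fell, against 6.99% of all tested genes higher and 8.95% lower. This list held 10 V0 and V1 subunits of the V-ATPase, the lysosomal proton pump, and 5 of these rose. Subunits outside the list were not counted. The median of the 44 was −5.2e-05. GC-adjusted, 5 rose and 2 fell. The number that rose was 5 without vehicle library 1 or 3 and 4 without PF library 2 or 3. *Atp6v0d2*, a subunit of the membrane sector that macrophages and osteoclasts induce, had 12.6, 15.97 and 16.4 CPM with vehicle and 25.0, 33.0 and 37.6 CPM with PF, without overlap. It rose 2.12-fold (log2 fold change 1.09, SE 0.21, adjusted p = 0.00743, GC-adjusted 0.64). *Atp6v1c1*, of the catalytic sector, rose from 123, 120.4 and 112 to 161, 182 and 207 CPM (log2 fold change 0.63, SE 0.09, adjusted p = 0.00129). Its response differed between the genotypes by 0.64 (SE 0.13, adjusted p = 0.048). *Atp6v1d* and *Atp6v1h* rose by 0.57 and 0.63 and passed in every leave-out, but their GC-adjusted values of 0.13 and 0.25 did not pass. The other subunit of the list that rose, *Atp6v1a*, did not pass when GC-adjusted either (adjusted p = 0.0529), nor without vehicle library 1 or 3 (0.0989 and 0.0837) or PF library 2 or 3 (0.0509 and 0.127). The lysosomal mannosidase *Man2b1* fell by 0.43 on the log2 scale (SE 0.09, adjusted p = 0.00766).

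Of 16 tested genes of the TFEB family, the folliculin complex and its lysosomal anchor 4 rose and 2 fell, against 6.99% of all tested genes higher and 8.95% lower, with a median of 0.34 (GC-adjusted 0.21, 3 higher). The 2 falls were those of *Tfeb* and *Tfe3* themselves, at −0.33 and −0.35. Their GC-adjusted values of −0.14 and −0.11 did not pass (adjusted p = 0.217 and 0.271). Neither fall passed without vehicle library 1 (adjusted p = 0.0917 and 0.0689), vehicle library 3 (0.0638 and 0.055), PF library 2 (0.0713 and 0.0684) or PF library 3 (0.141 and 0.0922). *Fnip2*, a folliculin-interacting protein and a target of TFEB, had 285, 340.0 and 395 CPM with vehicle and 438, 521 and 591 CPM with PF. It rose 1.52-fold without overlap (log2 fold change 0.60, SE 0.12, adjusted p = 0.00708, GC-adjusted 0.63). *Lamtor3*, of the Ragulator scaffold that holds mTORC1 at the lysosome, rose by 0.55 (SE 0.09, adjusted p = 0.00292, GC-adjusted 0.34). *Rragc*, a Rag GTPase of that site, rose by 0.37 (SE 0.07, adjusted p = 0.0057), but its GC-adjusted value of −0.019 had the opposite sign.

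Genes of autophagy did not move as a block. Of 21 genes that start autophagy, the ULK1 and VPS34 complexes included, 4 fell (8.95% of all tested genes did) and *Ulk1* itself was at −0.28 (SE 0.11, adjusted p = 0.0889). Of 16 autophagy and mitophagy receptors 5 rose, and of 16 genes of the ATG conjugation system 3 rose, against 6.99% of all tested genes. The receptor count was 1 without vehicle library 3 and 0 in edgeR's test without vehicle library 1, PF library 2 or PF library 3, where 6 had an unadjusted p below 0.05 in each case. DESeq2 and limma-voom, on all libraries, gave 6 and 4. For the genes that start autophagy the count was 0 in edgeR's test without vehicle library 1 or 3 (6 and 4 at an unadjusted p below 0.05), without PF library 2 or 3 (5 and 5) and when GC-adjusted (5), where DESeq2 and limma-voom gave 5 and 4 on all libraries. For the conjugation genes it was 1 without vehicle library 1, and 0 in edgeR's test without vehicle library 3 (6 at an unadjusted p below 0.05) or PF library 2 or 3 (4 and 4), against 4 by DESeq2 and 3 by limma-voom on all libraries.

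*Cx3cr1*, the receptor for fractalkine on monocytes and resident macrophages, had the smallest p of all genes (chromosome 9, 119901616 to 120069879 on GRCm38). It stood at 185, 179.6 and 184 CPM with vehicle and at 88.0, 91.4 and 85.2 CPM with PF. The 2 groups were tight and far apart, a 2.07-fold fall that the GC adjustment left at −1.04 (log2 fold change −1.05, SE 0.07, adjusted p = 6.6e-07). In AMPKβ1-/- BMDMs it stood between 159 and 176 CPM in all 6 libraries, and the difference between the genotypes was −0.995 (SE 0.09, adjusted p = 0.000174).

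Other genes of resident macrophages fell beside it. Of 18 tested homeostatic genes 4 fell, *Cx3cr1*, *Olfml3*, *Smad3* and *Csf1r*, against 8.95% of all tested genes lower, and the same number fell when any vehicle library or PF library 2 or 3 was left out and when GC-adjusted. Without PF library 1, 5 fell and 1 rose. The median of the 18 was 0.032, and −0.057 when GC-adjusted. *Olfml3*, a secreted protein of microglia and resident macrophages, fell from 30.9, 24.4 and 24.9 to 13.5, 14.1 and 13.2 CPM (1.96-fold lower, log2 fold change −0.97, SE 0.12, adjusted p = 0.000454). *Csf1r*, the receptor for M-CSF, had 7643, 6541 and 7931 CPM with vehicle and 5277, 4826 and 4709 CPM with PF. The groups did not overlap (1.49-fold lower, log2 fold change −0.58, SE 0.09, adjusted p = 0.00207, GC-adjusted −0.44). *Smad3*, which carries TGF-β signals to the nucleus, fell by 0.62 on the log2 scale (SE 0.11, adjusted p = 0.00358).

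Several surface receptors and secreted proteins outside that list fell by about as much. *Siglece*, an inhibitory receptor for sialic acids, had 13.9, 11.6 and 11.9 CPM with vehicle and 4.72, 6.08 and 5.23 CPM with PF (2.34-fold lower, log2 fold change −1.22, SE 0.16, adjusted p = 0.000588, GC-adjusted −1.12). *Gpr84*, a receptor for medium-chain fatty acids, fell from 71.9, 48.8 and 61.3 to 29.2, 32.6 and 25.8 CPM (2.08-fold lower, log2 fold change −1.05, SE 0.14, adjusted p = 0.000716). *Igfbp4*, which binds insulin-like growth factors, fell from 469, 410.1 and 418 to 259, 227 and 221 CPM (1.83-fold lower, log2 fold change −0.87, SE 0.09, adjusted p = 0.000105). For these 3 genes every PF library lay below every vehicle library. *Slco2b1*, an organic anion transporter, stood at 13.8, 13.6 and 12.1 CPM with vehicle and 6.69, 7.02 and 6.85 CPM with PF. Its fall was 1.92-fold (log2 fold change −0.94, SE 0.14, adjusted p = 0.00114). *Pald1*, which carries phosphatase domains, and *Gprc5c*, an orphan receptor, fell by 1.17 and 0.86 on the log2 scale (adjusted p = 0.0011 and 0.00129), and all of these genes were steady.

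**Figure D3:**
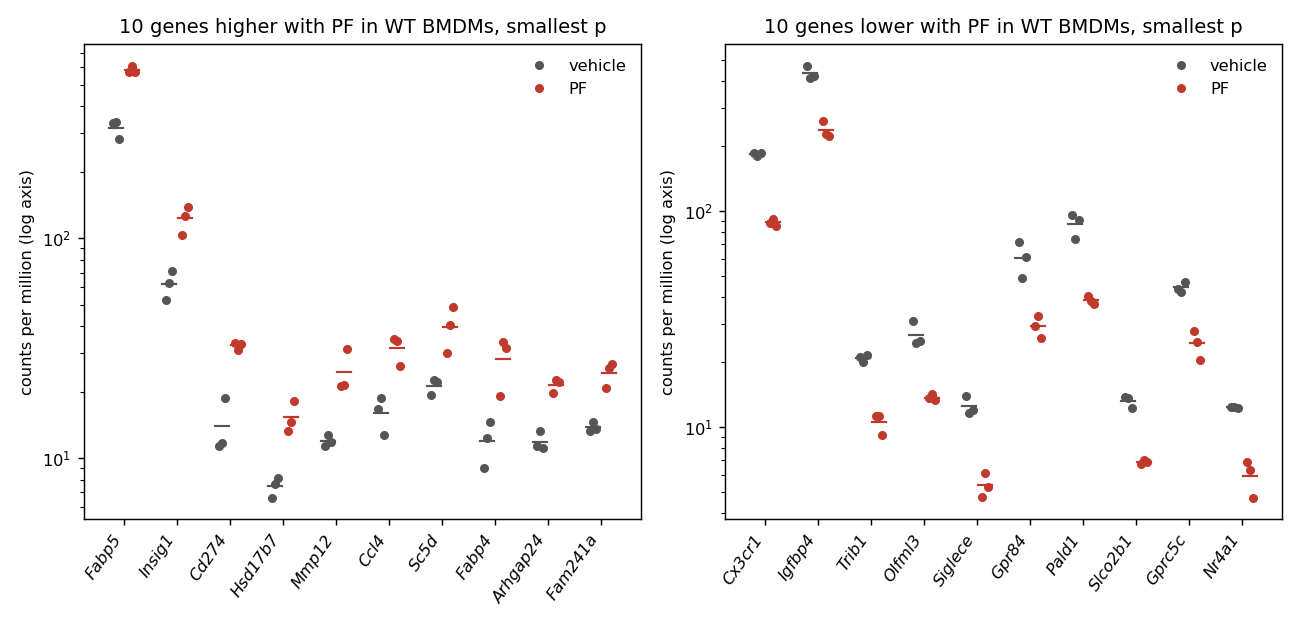
Level in CPM (log axis) of the 10 higher (left) and the 10 lower genes (right) with the smallest p among DEGs over 5 CPM whose groups do not overlap. Each point is a library, gray for vehicle and red for PF in WT BMDMs, and bars are means of 3 libraries. In every gene the 3 red points lie on 1 side of the 3 gray points, which the choice of these genes fixed.

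The inhibitory receptors of myeloid cells moved in both directions. Of 23 tested 7 fell and 4 rose, against 8.95% of all tested genes lower and 6.99% higher, and GC-adjusted 8 fell and 2 rose. Without PF library 3 the counts were 5 and 2. *Clec4a1*, a C-type lectin, had 194, 183 and 189 CPM with vehicle and 114, 136 and 137 CPM with PF (log2 fold change −0.55, SE 0.09, adjusted p = 0.00187, GC-adjusted −0.91). *Vsir*, the checkpoint protein VISTA, fell by 0.44 (SE 0.07, adjusted p = 0.00259) and *Pilra*, a paired immunoglobulin-like receptor, by 1.09 (SE 0.21, adjusted p = 0.00543), both on the log2 scale. *Cd33*, a sialic acid receptor like *Siglece*, went the other way, from 8.45, 10.8 and 7.27 to 14.1, 16.4 and 16.8 CPM (log2 fold change 0.83, SE 0.16, adjusted p = 0.00482). *Cd274*, which encodes the T cell checkpoint ligand PD-L1, had 11.4, 11.7 and 18.8 CPM with vehicle and 33.4, 31.3 and 33.2 CPM with PF. It rose 2.33-fold without overlap (log2 fold change 1.22, SE 0.16, adjusted p = 0.000588, GC-adjusted 0.94), and the difference between the genotypes was 1.10 (SE 0.22, adjusted p = 0.044), or an adjusted p of 0.0631 when GC-adjusted. Downstream of such receptors, 7 of 16 kinases of the Src family and the SYK pathway fell and 1 rose, against the same shares. The number that fell was 2 GC-adjusted and 2 without vehicle library 1 or 3 or PF library 2 or 3. *Fgr*, of the Src family, fell from 30.8, 33.7 and 33.7 to 20.7, 22.3 and 18.6 CPM (log2 fold change −0.68, SE 0.11, adjusted p = 0.00187), and *Csk*, which restrains that family, by 0.40 on the log2 scale (SE 0.08, adjusted p = 0.00728).

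Of 24 subunits, IκB proteins, kinases and adaptors of NF-κB signalling 12 fell and 1 rose, against 8.95% of all tested genes lower and 6.99% higher, with a median of −0.23, or −0.16 with scaling by library size alone. GC-adjusted, 4 fell and the median was −0.11. The number that fell was 7 without vehicle library 3, 5 without PF library 2, 3 without PF library 3 and 3 with the 6 WT libraries alone. *Bcl3*, a nuclear IκB protein, had 41.6, 39.8 and 45.3 CPM with vehicle and 28.6, 27.9 and 21.6 CPM with PF (1.62-fold lower, log2 fold change −0.70, SE 0.11, adjusted p = 0.00225, GC-adjusted −0.51). In AMPKβ1-/- BMDMs it had 39.1, 36.5 and 33.7 CPM with vehicle and 40.9, 47.4 and 42.7 CPM with PF, and the difference between the genotypes was −0.96 (SE 0.16, adjusted p = 0.0196). *Ikbke*, the kinase IKKε, fell from 263, 248 and 287 to 197, 190.3 and 176 CPM (log2 fold change −0.50, SE 0.09, adjusted p = 0.00468). Both were steady. *Tnf*, a cytokine that NF-κB induces, had 44.4, 42.9 and 46.3 CPM with vehicle and 46.5, 46.3 and 39.1 CPM with PF. These libraries overlapped, and the log2 value of −0.02 (SE 0.10) did not pass (adjusted p = 0.902). Its sign turned with library size scaling (0.059), upper quartile scaling (0.010) and GC adjustment (0.047), and without vehicle library 3 (0.0089) or PF library 3 (0.068).

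Sensing receptors and secreted mediators gave a mixed picture. Of 24 Toll-like receptors and adaptors 6 fell and 2 rose, against 8.95% of all tested genes lower and 6.99% higher. The falls numbered 5 GC-adjusted and 3 without vehicle library 1 or 3 or PF library 2 or 3, where at most 1 rose. *Tlr9*, the endosomal receptor for CpG DNA, stood at 119, 116 and 145 CPM with vehicle and 86.6, 82.3 and 74.2 CPM with PF (log2 fold change −0.65, SE 0.11, adjusted p = 0.00227). *Ccl4*, a chemokine that attracts monocytes and T cells, rose from 16.8, 18.7 and 12.7 to 34.9, 34.3 and 26.2 CPM (1.97-fold, log2 fold change 0.98, SE 0.16, adjusted p = 0.00187, GC-adjusted 0.88). *Ccl3*, its neighbour in the genome and in function, rose by 0.59 (SE 0.11, adjusted p = 0.00424), with a GC-adjusted value of 0.32 that did not pass (adjusted p = 0.18). *Cxcl14* fell by 0.65 (SE 0.11, adjusted p = 0.00193) and *Il16*, a cytokine that binds CD4, by 0.62 (SE 0.09, adjusted p = 0.00123), both on the log2 scale. Of 21 tested cytokines 4 rose and 2 fell, against 6.99% and 8.95% of all tested genes, and GC-adjusted 3 rose and 3 fell. Leaving out a WT library gave at most 1 rise and from 1 to 4 falls. Of 32 interferon-stimulated genes 0 passed in edgeR's test, 2 had an unadjusted p below 0.05, and 1 passed by DESeq2 and 0 by limma-voom, with a median of 0.0095.

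Further genes with large and steady changes were secreted or signalling proteins. *Mmp12*, the macrophage elastase, had 11.4, 12.7 and 11.8 CPM with vehicle and 21.3, 21.6 and 31.5 CPM with PF (2.07-fold, log2 fold change 1.05, SE 0.16, adjusted p = 0.00129). *Il7r*, a chain of the interleukin-7 receptor, rose from 22.99, 40.0 and 31.7 to 59.0, 64.1 and 88.1 CPM (2.23-fold, log2 fold change 1.15, SE 0.22, adjusted p = 0.00728). *Rgs1*, which shuts off G protein signals of chemokine receptors, rose from 3.42, 7.11 and 4.48 to 9.35, 12.1 and 16.5 CPM (2.51-fold, log2 fold change 1.33, SE 0.24, adjusted p = 0.00393). None of the 3 had overlapping groups, which the choice of these genes fixed, and their GC-adjusted values were 0.64, 0.74 and 0.93. In AMPKβ1-/- BMDMs the log2 fold changes were 0.36, 0.37 and 0.57 and did not pass, though the PF libraries of *Mmp12* and *Rgs1* lay above the vehicle libraries there too. The difference between the genotypes did not pass for *Mmp12*, *Il7r* or *Rgs1* (interaction term, adjusted p = 0.177, 0.277 and 0.314). *Arhgap24*, which turns off small GTPases of the cytoskeleton, rose by 0.85 (SE 0.14, adjusted p = 0.00259, GC-adjusted 0.84). *Kit*, the receptor for stem cell factor and a marker of mast cells and progenitors, rose from 1.18, 1.11 and 1.59 to 2.49, 4.02 and 3.92 CPM (log2 fold change 1.42, SE 0.27, adjusted p = 0.00506). It was the only 1 of 13 erythroid, mast cell and megakaryocyte markers that passed the filter, and the part of such cells in its rise was not tested.

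Of 23 AP-1 factors and immediate early genes 5 fell, against 8.95% of all tested genes lower, with a median of −0.17. GC-adjusted, 3 fell and 2 rose, and the median was 0.020, of the opposite sign. Without vehicle library 3, PF library 2 or PF library 3, 3 fell, and without PF library 1, 9 fell. *Nr4a1*, an orphan nuclear receptor induced within minutes of a stimulus, had 12.3, 12.3 and 12.2 CPM with vehicle and 6.86, 6.27 and 4.69 CPM with PF. It fell 2.07-fold without overlap (log2 fold change −1.05, SE 0.16, adjusted p = 0.00149, GC-adjusted −0.85). *Fos*, of the AP-1 dimer, fell from 93.3, 107 and 118 to 67.0, 73.4 and 68.7 CPM (log2 fold change −0.61, SE 0.09, adjusted p = 0.00121). Its level in AMPKβ1-/- BMDMs was 173 to 199 CPM over the 6 libraries, and the difference between the genotypes was −0.68 (SE 0.12, adjusted p = 0.0261), or an adjusted p of 0.0512 when GC-adjusted. *Btg2*, an antiproliferative early gene, fell by 0.54 on the log2 scale (SE 0.09, adjusted p = 0.00187).

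The C/EBP factors and the Tribbles pseudokinases split as well. Of 8 tested 3 rose, *Trib3* among them, and 2 fell, against 6.99% of all tested genes higher and 8.95% lower. The median was 0.34, and GC-adjusted 3 rose and 2 fell. The rises numbered 1 without vehicle library 1 or 3 or PF library 3. Without PF library 2 they were 0 in edgeR's test (5 of 8 at an unadjusted p below 0.05), against 3 each by DESeq2 and limma-voom with all libraries. *Trib1*, which directs C/EBPα to the proteasome, had 21.1, 19.9 and 21.4 CPM with vehicle and 11.1, 11.2 and 9.15 CPM with PF, without overlap (1.98-fold lower, log2 fold change −0.99, SE 0.11, adjusted p = 0.000394). In AMPKβ1-/- BMDMs it had 27.6 to 33.3 CPM over all 6 libraries, and the difference was −0.87 (SE 0.15, adjusted p = 0.0236). *Cebpd* fell from 54.95, 51.8 and 51.9 to 36.5, 29.7 and 28.1 CPM (log2 fold change −0.75, SE 0.10, adjusted p = 0.00092, GC-adjusted −0.82). Of 17 tested circadian clock genes 3 rose and 2 fell (6.99% and 8.95% of all tested genes), with a median of −0.022. GC-adjusted, 2 rose and 1 fell. The clock repressors *Bhlhe40* and *Bhlhe41* both rose, by 0.59 (SE 0.10, adjusted p = 0.00291) and 0.67 (SE 0.10, adjusted p = 0.00166). *Bhlhe40* had 21.7, 20.03 and 23.1 CPM with vehicle and 33.8, 31.7 and 31.8 CPM with PF. Of 20 tested heat shock and chaperonin genes 5 rose and 2 fell, against the same shares of all tested genes. GC-adjusted, 1 rose and 2 fell, as without vehicle library 1 or PF library 2 or 3. The inducible HSP70 genes *Hspa1a* and *Hspa1b* fell by 0.82 (SE 0.17, adjusted p = 0.00728) and 1.10 (SE 0.18, adjusted p = 0.00229) on the log2 scale. They are near-identical copies whose reads the counting could split, so they are not independent.

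**Figure D4:**
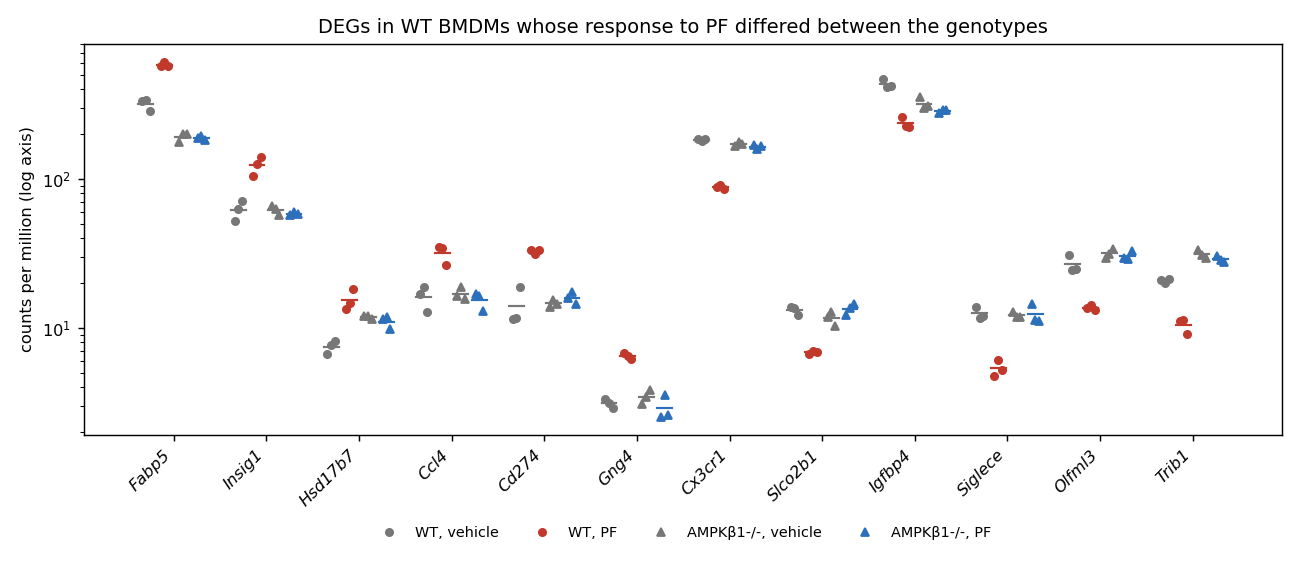
Level in CPM (log axis) of the 12 DEGs of WT BMDMs whose response differed between the genotypes with an adjusted p below 0.05. Points are libraries (circles for WT, triangles for AMPKβ1-/-, gray for vehicle and red or blue for PF), and bars are means of 3. In WT the red and gray points are apart, as with *Cx3cr1* at 85.2 to 91.4 against 179.6 to 185 CPM. In AMPKβ1-/- BMDMs blue and gray lie closer together, at 159 to 176 CPM for *Cx3cr1*. The choice of these genes favoured this pattern. For *Igfbp4* the AMPKβ1-/- libraries did not overlap either, at 277 to 291 CPM with PF and 300 to 352 CPM with vehicle.

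Of 24 genes of glycolysis and the pentose phosphate pathway 10 fell and 1 rose, against 8.95% of all tested genes lower and 6.99% higher, with a median of −0.30, and GC-adjusted 4 fell and 3 rose. In edgeR's test 0 fell without vehicle library 1, PF library 2 or PF library 3, where 13 of the 24 had an unadjusted p below 0.05 in each case (DESeq2 and limma-voom, with all libraries, each gave 10 falls), and 5 fell without vehicle library 3. Of 81 nuclear-encoded subunits of the respiratory chain 10 rose, against 6.99% of all tested genes. That count was 3 when GC-adjusted, 2 without vehicle library 3, 1 without PF library 2, 0 by edgeR without PF library 3 (24 of 81 at an unadjusted p below 0.05) and 22 without PF library 1. With all libraries DESeq2 gave 15 and limma-voom 7.

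Of 35 genes of actin and cell shape 14 fell, against 8.95% of all tested genes lower, and the others did not pass, and GC-adjusted 10 fell and 1 rose. From 9 to 17 fell with a WT library left out, the fewest without PF library 3. *Coro1a*, which coats actin in leukocytes, had 1289, 1098 and 1049.8 CPM with vehicle and 833, 795 and 712 CPM with PF, without overlap (1.47-fold lower, log2 fold change −0.56, SE 0.09, adjusted p = 0.00183, GC-adjusted −0.33). *Fmnl1*, a formin of blood cells, fell from 750.0, 670.0 and 767 to 532, 500.1 and 458 CPM (log2 fold change −0.55, SE 0.08, adjusted p = 0.00109). Its response differed between the genotypes by −0.57 (SE 0.11, adjusted p = 0.0415). *Flna*, which crosslinks actin, and *Tln1*, which ties integrins to actin, fell by 0.51 and 0.48 on the log2 scale (adjusted p = 0.00227 and 0.00728). The integrin subunit *Itgal* fell from 208, 203 and 253 to 143, 131 and 135 CPM (1.63-fold lower, log2 fold change −0.70, SE 0.10, adjusted p = 0.00112). Its ligand *Icam1* fell from 220.0, 189 and 222 to 149, 146 and 137 CPM (log2 fold change −0.55, SE 0.08, adjusted p = 0.00129). All 6 of these genes were steady.

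Of 20 scavenger and efferocytosis receptors 7 fell (5 GC-adjusted), against 8.95% of all tested genes lower, and the count was 4 without vehicle library 3 and 3 without PF library 2 or 3. *Stab1*, a scavenger receptor, had 1117, 941 and 1211 CPM with vehicle and 742, 718 and 691 CPM with PF (log2 fold change −0.60, SE 0.12, adjusted p = 0.00587). *Itgb5*, an integrin chain that takes up apoptotic cells, fell by 0.45 (SE 0.09, adjusted p = 0.00637) and *Il4ra*, the receptor that drives alternative activation, by 0.59 (SE 0.09, adjusted p = 0.00188), both on the log2 scale. Of 14 complement genes 5 fell, against the same 8.95%, and 1 did when GC-adjusted or without vehicle library 1, PF library 2 or PF library 3.

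Among genes of transport and protein turnover, most calls were lost when GC-adjusted. Of 30 genes of coat, retromer and SNARE transport, with a median GC content of 45.5%, 12 rose and 1 fell (over all tested genes 6.99% were higher and 8.95% lower), and GC-adjusted 1 rose and 1 fell. Without PF library 2, 2 of them rose, without PF library 3 the count was 0 in edgeR's test (14 of 30 at an unadjusted p below 0.05, and 16 by DESeq2 and 10 by limma-voom with all libraries), and without vehicle library 1 or 3 it was 1 or 2. Of 23 nuclear import and export factors, with a median GC content of 44.6%, 5 rose, and 2 did so when GC-adjusted, without either of vehicle libraries 1 and 3 or without PF library 2, 1 without PF library 3 and 13 without PF library 1. Cytosolic ribosomal proteins, with a median GC content of 52.0% against 50.6% over all tested genes, had 9 of 80 higher against 6.99% of all genes, 21 with scaling by library size alone and 2 when GC-adjusted. The ribosomal count was 3 without vehicle library 1, 1 without vehicle library 3 or PF library 3, 21 without PF library 1 and 0 by edgeR without PF library 2 (13 at an unadjusted p below 0.05, and 16 by DESeq2 and 8 by limma-voom with all libraries). Proteasome subunits, with a median GC content of 50.9%, had 5 of 49 higher and 1 when GC-adjusted, with 3 without vehicle library 3, 9 without PF library 1 and 2 without PF library 2 or 3. *Tpt1*, an abundant transcript, kept its rise. It stood at 1000.5, 1182 and 970.1 CPM with vehicle and at 1457, 1486 and 1536 CPM with PF (log2 fold change 0.51, SE 0.08, adjusted p = 0.00172, GC-adjusted 0.29). Its response differed between the genotypes by 0.56 (SE 0.11, adjusted p = 0.0417).

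**Figure D5:**
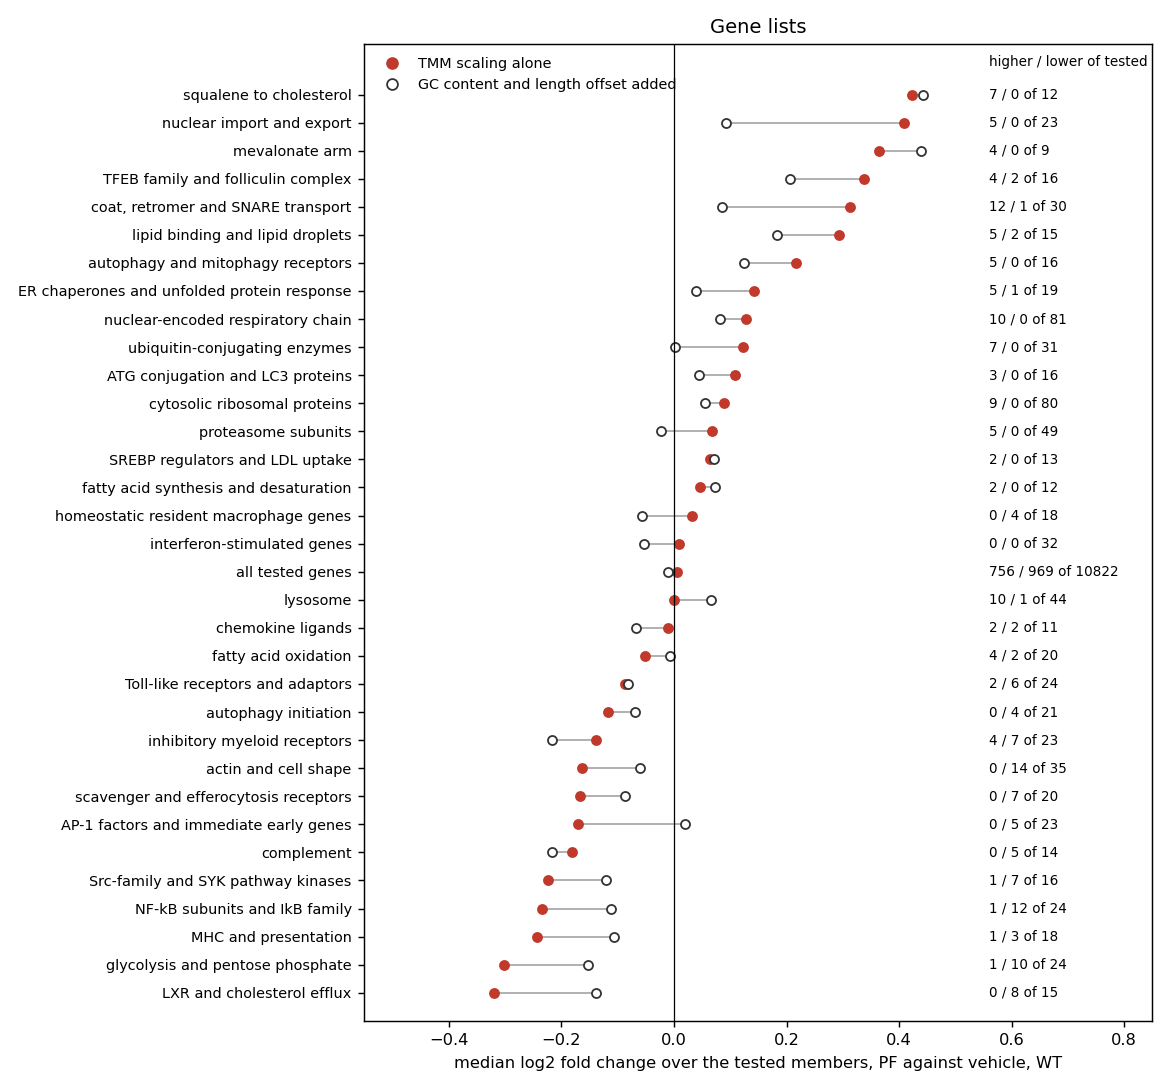
Median log2 fold change of PF against vehicle in WT BMDMs over the tested members of each gene list (x axis), with TMM scaling alone (filled) and GC-adjusted (open), ordered by the filled value. The numbers on the right are members higher and lower with an adjusted p below 0.05 of those tested. The sterol lists keep medians of 0.44 when GC-adjusted, while nuclear import and export moves from 0.41 to 0.093.

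The AMPK subunits themselves gave no call. Of 5 tested 0 passed in edgeR's test, in DESeq2 or in limma-voom, and 1, *Prkaa1*, had an unadjusted p below 0.05. *Prkaa1*, the catalytic α1 subunit, had 18.7, 21.9 and 20.5 CPM with vehicle and 22.5, 28.4 and 27.9 CPM with PF (log2 fold change 0.36, SE 0.14, adjusted p = 0.0838), with a GC-adjusted value of −0.037. It passed without PF library 1 (adjusted p = 0.0276).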

How the data were processed

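RNA of 12 libraries of BMDMs was sequenced by the authors, 3 for each combination of genotype and treatment. Per the labels, reads were trimmed with Trim Galore and quantified with Salmon (versions and genome build not given in the sources used here), and the deposited table holds the authors' estimated counts per gene symbol as whole numbers, not normalized. Columns named the group and a library number, which gave groups but tied no column to a single sample record.

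Differential expression was computed by edgeR 4.0.16 under R 4.3.3: genes with low counts were removed with filterByExpr, libraries were scaled by TMM, and 4 group means were fitted to all 12 libraries by robust quasi-likelihood. The adjusted p is that of Benjamini and Hochberg over all tested genes. CPM values are relative to TMM-scaled library sizes, and the log2 CPM behind the library trends used a prior count of 2. WT library depth was 10621863 to 13073445 counts. Symbols were matched to GENCODE M21 (GRCm38) for GC content, length and position (12703 by symbol, 166 by older symbol, 91 not matched), and the GC-adjusted fit took as offset each library's trend in both, from splines with 5 degrees of freedom. Alternatives included other scalings and filters, DESeq2 1.42.0, limma-voom (limma 3.58.1), the 6 WT libraries alone and each WT library left out. The fits were tested on simulated data.

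Named genes were the AMPK subunits, the 10 higher and 10 lower non-overlapping DEGs over 5 CPM with the smallest p, the 5 largest changes each way, the abundant called genes, DEGs that differed between genotypes, and members of gene lists by p or because they define the list. The text draws on these, and some items are not reported here. Members and lists were chosen with earlier results of these data known.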

Additional observations from a re-analysis of the deposited data

Results flagged for a closer look

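The response to PF differed between WT and AMPKβ1-/- BMDMs, by the interaction term of edgeR's fit over all 12 libraries with an adjusted p below 0.05, for 23 of the named genes. All values here are the log2 fold change in WT minus that in AMPKβ1-/- BMDMs. Among genes of lipid metabolism the difference was 1.07 for *Insig1*, 1.14 for *Hsd17b7*, 0.84 for *Cyp51*, 0.79 for *Msmo1*, 0.90 for *Scd2* and 0.90 for *Fabp5*. Among receptors, transporters and secreted proteins it was −0.995 for *Cx3cr1*, −1.24 for *Siglece*, −1.13 for *Slco2b1*, −0.92 for *Olfml3*, −0.71 for *Igfbp4*, 1.10 for *Cd274*, 1.13 for *Ccl4* and −0.69 for *Il16*. Among genes of signalling and transcription it was −0.96 for *Bcl3*, −0.87 for *Trib1*, −0.68 for *Fos*, −0.81 for *Fgr* and 1.30 for *Gng4*, a G protein γ subunit that had 2.89 to 3.31 CPM with vehicle and 6.15 to 6.77 CPM with PF in WT. For the remaining genes it was −0.57 for *Fmnl1*, 0.69 for the proteasome subunit *Psma4*, 0.64 for *Atp6v1c1* and 0.56 for *Tpt1*. With the GC content and length trend removed, *Cd274* (adjusted p = 0.0631) and *Fos* (adjusted p = 0.0512) no longer passed.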

How the results depend on the processing

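The counts of DEGs, 125 higher and 40 lower, were 188 and 26 with scaling by library size alone, 55 and 22 with the 6 WT libraries alone and 25 and 28 when GC-adjusted. With 1 WT library left out they ran from 22 to 387 higher and from 23 to 72 lower. A test against the fold threshold itself (edgeR's glmTreat) called 0 higher and 0 lower (38 and 24 at an unadjusted p below 0.05). The counts at an adjusted p below 0.05, 756 higher and 969 lower, were 1045 and 587 with library size, 210 and 209 with the 6 WT libraries alone and 320 and 415 when GC-adjusted, and ran from 129 to 1622 and from 217 to 1621 with 1 library left out. DESeq2 gave 1062 and 963, and limma-voom 638 and 959.

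The mevalonate median of 0.36 was 0.443 with library size and 0.439 when GC-adjusted. From squalene on, the median of 0.42 was 0.502 with library size and 0.453 with upper quartile scaling, and 0.374 to 0.467 with 1 library left out. The LXR median of −0.32 was −0.139 when GC-adjusted, and that of NF-κB, −0.23, was −0.157 with library size and −0.112 when GC-adjusted. With the 6 WT libraries alone 10 of the 21 sterol enzymes rose. In that fit 2 LXR genes, 3 of NF-κB and 1 Toll-like receptor or adaptor fell. By edgeR 0 glycolysis genes fell there (13 of 24 at an unadjusted p below 0.05) and 0 genes of coat, retromer and SNARE transport rose (19 of 30 at an unadjusted p below 0.05). The count of genes that differed between the genotypes, 45, was 137 when GC-adjusted, an alternative chosen after seeing the data, as was leaving out libraries for the GC slope, whose difference of −0.381 then ran from −0.486 to −0.273.

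None of the genes whose sign turned was a DEG, but *Rragc* and *Rtn4* among them had passed the test as higher. GC adjustment turned *Prkab2* to −0.112, *Prkaa1* to −0.0365, *Srebf2* to 0.111, *Rragc* to −0.0185, *Rtn4* to −0.106 and *Tnf* to 0.0474. *Tnf* was also 0.059 with library size, 0.0102 with upper quartile scaling, and ran from −0.0617 to 0.0678 with 1 library left out. Over the same leave-outs *Prkab2* ran from −0.0433 to 0.366 and *Fasn* from −0.0582 to 0.136.

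Nothing in the labels says whether same-numbered vehicle and PF libraries of WT were paired. The correlations of their deviations were 0.317, −0.00631 and 0.12, and not every library correlated best with its own number. A replicate block on these numbers gave 1248 higher and 954 lower genes. At 3 libraries a group, small changes of weakly expressed genes were not detectable.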
